A study of Mus musculus with 18 samples.

Results

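Müller glia are the radial glial cells of the retina. They take up glutamate released by neurons and return it as glutamine, buffer potassium and water, and take part in the visual cycle of retinoids. The 10 genes examined here mark these cells by function or by cell identity: Rlbp1, Glul, Slc1a3, Kcnj10 and Aqp4 encode a retinoid carrier, an enzyme, a transporter and a pair of channels, Sox9, Lhx2 and Hes1 encode transcription factors, and Apoe and Dkk3 encode secreted proteins. They were chosen by name. For each, the peaks between 10 kb upstream of the gene start and the gene end were taken from 18 lists of ATAC-seq peaks of mouse retina (mm10, GENCODE M21). ATAC-seq marks open chromatin, because a transposase inserts adapters where DNA is accessible and fragments pile up there. These 10 windows, of 16639 protein-coding genes with a region in the window, held 442 of the 911837 listed peaks. Merging overlapping peaks of all libraries and dropping those with a peak in fewer than 2 libraries gave 34 consensus regions, of 73567 in the genome. A region is named below by its gene and by the distance of its median summit from the gene start in bp.

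The libraries were made from whole retina of wild-type (WT) mice, 3 per group. At 3 and at 18 months of age the groups were retinas of eyes whose intraocular pressure (IOP) was raised to 30 mmHg (for 1 hour, per the study's text), contralateral retinas of the fellow eyes, both taken on day 2 per the labels (the study's text gives a later day), and retinas labelled untreated. The labels all share a treatment text that also mentions dasatinib and vehicle, and none of them assigns a retina to either. The labels describe preparation per eye but do not say which mouse gave which library, so p-values measure only the spread between these libraries, and IOP and contralateral retinas may come from the same mice. In whole retina, fewer cells of a type and less accessible chromatin per cell cannot be told apart.

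The peak lists held 36011 to 66160 peaks each. Their shortest peaks fell into 3 ranges, 79 to 89 bp in the 6 untreated libraries, 114 to 122 bp in 5 libraries (3-month contralateral replicate 2, 3-month IOP replicate 1, 18-month contralateral replicates 1 and 3, 18-month IOP replicate 1) and 148 to 157 bp in the other 7. An effect of being untreated and of the range of shortest peaks cannot be told apart. As a check of the tissue, the start sites of the rod genes Nrl, Sag and Gnat1 were called in all 18 libraries, and those of all 4 microglial, all 4 endothelial and all 4 lens genes in none. Retinal ganglion cell genes had 3 of 8 starts called in every library, and of 4 pigment epithelium genes Best1 had a start call in 18 and the others in 0. Among astrocyte genes Gfap was called at its start in 18 libraries, Aldh1l1 in 13 and Pax2 and S100b in none, and among genes of other tissues Ckm was called in 18 and Alb, Ins2 and Myh4 in none.

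Of the 34 member regions, 11 (32.4%) were called in all 18 libraries, beside 33.6% of all consensus regions. Another 14 were called in 7 to 17 libraries and 9 in at most 6. Of the median summits, 9 lay upstream, 15 in introns, 4 in exons outside UTRs and 6 in UTRs. The windows held 1.00 region per 10 kb, against 0.416 over all protein-coding windows and 0.704 for 24 other genes known to be high in Müller glia. Single members ran from 0.346 (Slc1a3) to 3.06 (Apoe) per 10 kb. The median number of regions per gene was 3.0 for the members and for the 24 other genes, and 2.0 over all protein-coding genes. An own start site (from 1 kb upstream to 100 bp downstream of any annotated transcript start) was called in all 18 libraries for 5 of the 10 genes, Glul, Kcnj10, Sox9, Lhx2 and Hes1. This compares with 18 of the 24 other Müller glia genes and 54.6% of all protein-coding genes. The start sites of Apoe and Dkk3 were called in 16 libraries each, that of Slc1a3 in 11, that of Rlbp1 in 9 and that of Aqp4 in 0.

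**Figure D1:**
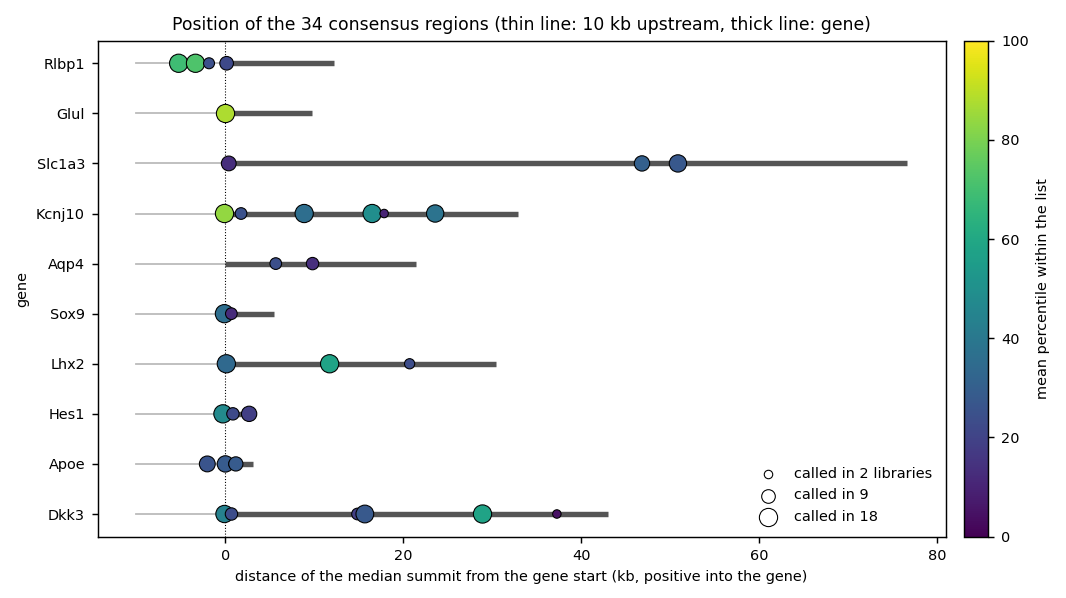
Position of the 34 consensus regions by distance from the gene start in kb, with symbol size giving the number of libraries with a call and colour the mean percentile within the lists. Glul and Kcnj10 carried high-ranking regions at the start, Rlbp1 had its high-ranking regions upstream, and Aqp4 had no region at or upstream of its start.

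To compare regions within a list, each peak was given the percentile of its −log10 q-value among all peaks of the same list, from 0 for the weakest to 100 for the strongest. A percentile is a rank within a list and not a level of accessibility. The 11 member regions called in all libraries had mean percentiles of 33.7 to 87.6 (median 57.9), below the median of 73.6 over the 24751 such regions in the genome. The other 23 had mean percentiles of 4.52 to 43.6 over the libraries that called them (median 23.3), close to the 23.6 of all regions of that kind.

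The start sites of Glul and Kcnj10 had the highest mean percentiles of the 13 own start regions. Glul encodes glutamine synthetase, which turns glutamate into glutamine. Its window held a single region, Glul -60, at chr1:153899311-153900779 (across the gene start), which also covers a start site of Teddm2 and of Mir8114. It was called in all 18 libraries at a mean percentile of 87.6 ± 2.57 (SD, n = 18), higher than 75.6% of all regions called in every library. Its summits lay within 68 bp of each other. The fold over local background at its strongest peak, as deposited, had a median of 9.78. Its lowest value was 7.50 and its highest 13.1, and the 6 untreated libraries (11.9 to 13.1) lay above the other 12. The fold at Kcnj10 -82 (below) separated likewise, with a lowest untreated value of 15.5 and a highest other value of 15.2. The share of regions in the genome with such a separation was not counted. By percentile, Glul -60 did not differ between untreated and contralateral libraries at p under 0.05 (exact permutation p = 0.0952). Some lists split the region, so that 1 to 3 peaks were counted per library, with 3 in 18-month untreated replicate 6. Below is the stretch upstream of the start, shown because it is the most constant member region, with the letters of the NFI motif (TTGGC, either strand) in capitals.

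Glul -60, chr1:153899785-153899928, plus strand, 5′ to 3′: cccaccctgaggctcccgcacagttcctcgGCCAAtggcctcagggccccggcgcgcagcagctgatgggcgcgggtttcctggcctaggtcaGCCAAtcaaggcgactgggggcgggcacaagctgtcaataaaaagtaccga

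Kcnj10 encodes the inwardly rectifying potassium channel Kir4.1, through which Müller glia buffer potassium. It had 6 regions. Kcnj10 -82, at chr1:172340702-172341550, was called in all 18 libraries at a mean percentile of 83.9 ± 5.08 (SD, n = 18), and its summits lay within 74 bp. The fold of its strongest peak ran from 9.48 to 20.8 with a median of 13.9. A pair of intronic regions, Kcnj10 +8876 and Kcnj10 +16515, was also called in all 18 libraries, at mean percentiles of 35.9 and 48.9. Kcnj10 +23599, in an intron, was called in 16 libraries and missed in replicate 5 of the untreated retinas at both ages. Kcnj10 +1780 and Kcnj10 +17860 were called in 6 and in 2 libraries. The start is shown, with the same capitals as for Glul.

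Kcnj10 -82, chr1:172341029-172341209, plus strand, 5′ to 3′: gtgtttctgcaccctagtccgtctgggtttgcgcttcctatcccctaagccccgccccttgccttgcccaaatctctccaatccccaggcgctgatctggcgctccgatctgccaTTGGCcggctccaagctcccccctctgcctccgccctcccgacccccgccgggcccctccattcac

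Slc1a3 encodes the glutamate transporter GLAST. None of its 3 regions was called in every library. The start region, Slc1a3 +398 in the UTR (chr15:8710076-8710876), was weak, with a mean percentile of 13.2 ± 11.9 (SD, n = 11) over the libraries that called it. With IOP libraries included, it was called in 8 of 9 libraries at 3 months and in 3 of 9 at 18 months. In the controls alone it was called in 5 of 6 and in 2 of 6 (Fisher's exact p = 0.242). Its summits were spread over 589 bp. In introns, Slc1a3 +50883 was called in 16 libraries and Slc1a3 +46844 in 12, at mean percentiles of 27.1 and 30.3. Aqp4 encodes the water channel aquaporin-4. It had no region at its start and only a pair of weak intronic regions, Aqp4 +5681 called in 6 libraries and Aqp4 +9815 (chr18:15401055-15401465) called in 7. Aqp4 had 0 to 2 peaks per library, the fewest of the 10 genes in total (14 peaks over 18 lists).

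Rlbp1 encodes CRALBP, the 11-cis-retinal carrier of Müller glia and pigment epithelium. Its strongest regions lay upstream. Rlbp1 -3341, at chr7:79390200-79390657, was called in all 18 libraries at a mean percentile of 71.9 ± 10.1 (SD, n = 18), and its summits lay within 93 bp. Rlbp1 -5233 was also called in all 18 at a mean percentile of 68.8, but it is at a start site of the neighbouring gene Fanci. The own start, Rlbp1 +158, was called in 9 libraries at a mean percentile of 22.1, in all 5 libraries with shortest peaks of 114 to 122 bp, in 3 of the 7 with longer ones and in 1 of the 6 untreated. Rlbp1 -3341 is shown because its rank after IOP passed an unadjusted p under 0.05, though not after adjustment (below). Capitals mark the Crx and Otx2 letters TAATCC and the RBPJ letters TGGGAA, either strand.

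Rlbp1 -3341, chr7:79390290-79390489, minus strand, 5′ to 3′: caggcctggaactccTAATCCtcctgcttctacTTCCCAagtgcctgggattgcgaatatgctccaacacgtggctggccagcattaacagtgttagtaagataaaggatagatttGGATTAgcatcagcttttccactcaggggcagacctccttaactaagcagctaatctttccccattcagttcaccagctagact

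Of the transcription factor genes, Hes1, a target of Notch signalling, had its main region upstream of the start. Hes1 -256, at chr16:30063199-30064479, was called in all 18 libraries at a mean percentile of 47.3 ± 11.5 (SD, n = 18). Its summits were spread over 707 bp and the whole gene had 1 to 6 peaks per library. Hes1 +865 and Hes1 +2687 were called in 7 and in 12 libraries. Sox9, a factor of glial identity, had a start region called in all 18 libraries at a mean percentile of 35.6 ± 15.9 (SD, n = 18) with summits spread over 383 bp, which also lies at a start of BC006965. Sox9 +689, in an exon, was called in 6 libraries. Lhx2, a homeodomain factor needed for the eye field and for mature Müller glia, had a pair of regions called in all 18 libraries. Lhx2 +11736, at the start of a shorter transcript, stood at a mean percentile of 57.9 ± 11.1 (SD, n = 18) with summits within 98 bp. Lhx2 +125, at the first start, stood at 33.7 ± 15.8 (SD, n = 18) with summits spread over 669 bp. Lhx2 +20725, in an exon, was called in 4 libraries, each of them with shortest peaks of 114 to 122 bp. Hes1 -256 is shown as the widest of these starts, with NFI letters and an RBPJ match in capitals.

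Hes1 -256, chr16:30064029-30064228, plus strand, 5′ to 3′: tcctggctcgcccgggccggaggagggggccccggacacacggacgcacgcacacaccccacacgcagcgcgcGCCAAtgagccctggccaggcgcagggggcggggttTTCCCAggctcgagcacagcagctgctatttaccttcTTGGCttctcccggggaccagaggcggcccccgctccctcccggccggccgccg

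Apoe encodes apolipoprotein E, a lipid carrier also made by other glia and by macrophages. It had 4 regions within a short gene and none was called in every library. Apoe +19, at the first start (chr7:19698583-19699288), was called in 14 libraries at a mean percentile of 28.3 ± 17.4 (SD, n = 14). With IOP libraries included, it was called in 5 of 9 libraries at 3 months and in 9 of 9 at 18 months. In the controls alone the calls were 4 of 6 and 6 of 6 (Fisher's exact p = 0.455, a total at which p cannot fall under 0.05). Apoe +1192, in an intron near a start of shorter transcripts, was called in 3 of 9 and in 7 of 9 libraries, and Apoe -2014, upstream, in 8 of 9 and in 5 of 9. In the controls alone Apoe -2014 was called in 6 of 6 and in 4 of 6 (Fisher's exact p = 0.455, again unable to fall under 0.05). Apoe +915 was called in 3 libraries. Dkk3 encodes a secreted member of the Dickkopf family. It had 6 regions, of which Dkk3 +28919, in an intron (chr7:112129835-112130539), was called in all 18 libraries at a mean percentile of 57.9 ± 14.0 (SD, n = 18). Dkk3 +15694, also intronic, was called in 17 libraries and Dkk3 -82, the start, in 16.

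Dkk3 -82 and Kcnj10 +23599 were missed by the same libraries, replicate 5 of the untreated retinas at both ages. The remaining regions of Dkk3 were called in 2 to 7 libraries. Dkk3 +702 (chr7:112158114-112158540) covers part of the exon with the start codon. Stretches of Dkk3 +702 and Dkk3 +28919 are shown because each passed an unadjusted p under 0.05 between the kinds of control (below). Neither passed after adjustment. The first begins at the start codon and holds none of the motif letters searched, and the second holds the NFI letters, in capitals.

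Dkk3 +702, chr7:112158256-112158395, minus strand, 5′ to 3′: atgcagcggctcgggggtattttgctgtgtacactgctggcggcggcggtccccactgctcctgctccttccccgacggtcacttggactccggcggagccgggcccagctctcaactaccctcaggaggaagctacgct

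Dkk3 +28919, chr7:112130039-112130238, minus strand, 5′ to 3′: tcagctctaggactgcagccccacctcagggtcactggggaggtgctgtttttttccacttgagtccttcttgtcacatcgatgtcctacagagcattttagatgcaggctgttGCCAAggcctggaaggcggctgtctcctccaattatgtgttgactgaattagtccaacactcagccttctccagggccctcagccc

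**Figure D2:**
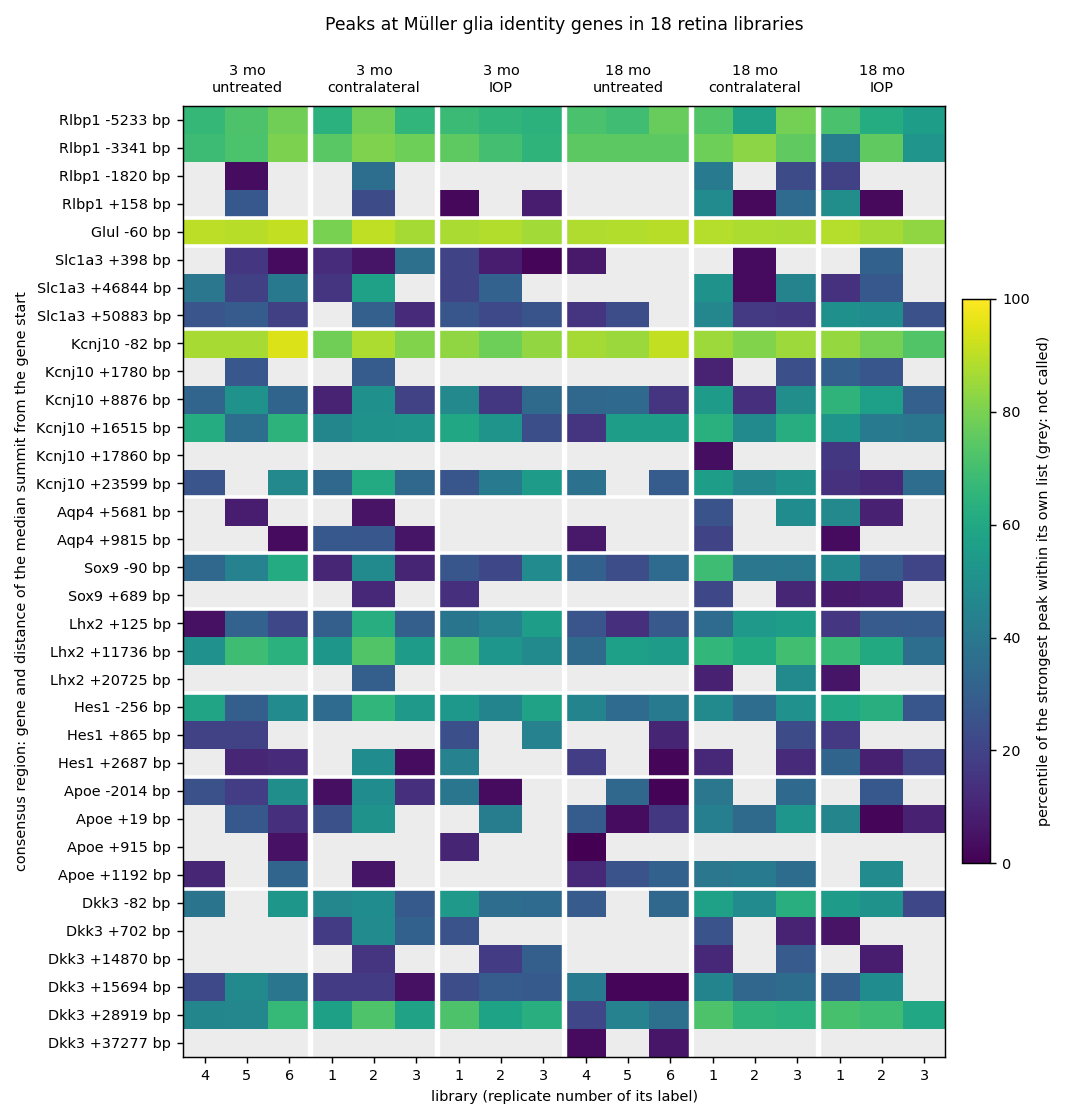
Calls and ranks of the 34 member regions (rows) in the 18 libraries (columns, by group and replicate number). Colour gives the percentile of the strongest peak of the region within its own list and grey marks a region not called. Glul -60, Kcnj10 -82, Rlbp1 -3341 and Rlbp1 -5233 were high in nearly every column, while regions called in few libraries fell mostly in the same few columns.

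The number of member regions called differed among libraries more than among groups. The 5 libraries with shortest peaks of 114 to 122 bp called 24 to 30 of the 34 regions, against 16 to 26 in the 7 with longer ones and 16 to 23 in the 6 untreated libraries. Of the 23 regions not called everywhere, 19 were called in a larger share of those 5 libraries than of the 7, as were 72.2% of all such regions in the genome. Of the 9 regions called in at most 6 libraries, 5 were called in none of the 7, and the genome share of this was not counted. Over all regions of the genome not called everywhere, 54.1% of possible calls were made in the 5 libraries and 34.4% in the 7. The values for the 23 member regions were 74.8% and 39.8%. Group means were 21.7 ± 2.31 regions in 3-month untreated, 23.3 ± 5.77 in 3-month contralateral, 21.0 ± 2.65 in 3-month IOP, 19.3 ± 3.06 in 18-month untreated, 26.3 ± 5.51 in 18-month contralateral and 23.3 ± 6.43 in 18-month IOP retinas (SD, n = 3 each), with overlapping ranges. Peaks in the windows made up 0.0356% to 0.0596% of a list.

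**Figure D3:**
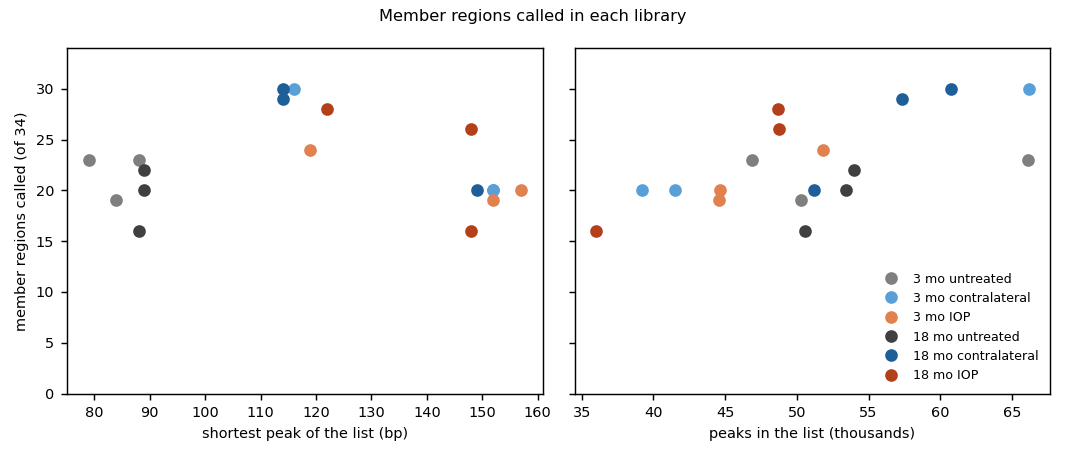
Member regions called in each library (of 34) against the shortest peak of its list in bp (left) and against the number of peaks in the list divided by 1000 (right), with 1 point per library coloured by group. Libraries with shortest peaks of 114 to 122 bp sit at 24 to 30 regions, and the 3-month contralateral replicates 1 and 3 share a point at 20 in the left panel.

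The comparison of ages asked what natural aging changes, setting the 6 controls (untreated and contralateral together) of 18 months against the 6 of 3 months. No member region differed in calls with age at p under 0.05, a level that only 4 of the 34 could reach. Of the 9868 regions of the genome that could reach p under 0.05, meaning regions with 5 to 7 calls over the 12 controls, 3.58% did, and of the 4 such member regions 0 did (Fisher's exact test, two-sided). Slc1a3 +398 was called in 5 of 6 control libraries at 3 months (untreated 2 of 3, contralateral 3 of 3) and in 2 of 6 at 18 months (1 of 3 in each kind), with an exact p of 0.242. For Apoe +1192 the values were 3 of 6 and 6 of 6 (exact p = 0.182, a total at which p cannot fall under 0.05). After adjustment no region of the genome passed, with a smallest adjusted p of 0.345 by Fisher's exact test.

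The number of regions called per gene gave the same picture. Of 16639 genes 1.78% had an unadjusted p under 0.05 for age, and of the 10 members 0 did (exact permutation test, two-sided, 924 arrangements, smallest adjusted p over all genes 1.0). The largest difference was in Slc1a3, where the number fell by 0.833 from 3 to 18 months (exact permutation p = 0.219). Slc1a3 had 2, 3 and 3 peaks in the 3-month untreated libraries and 2, 1 and 0 in the 18-month untreated ones, but 2, 6 and 2 and then 2, 3 and 2 in the contralateral ones, so that the ages overlapped.

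**Figure D4:**
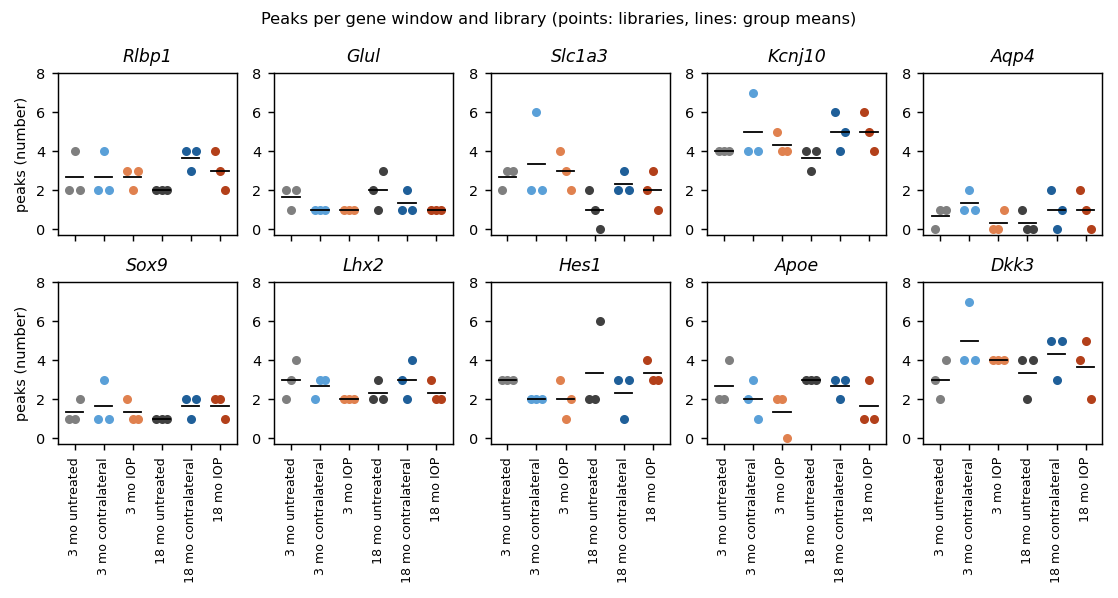
Number of listed peaks in the window of each gene, with 1 point per library and a line at the mean of each group of 3 libraries. Groups overlapped for each of the 10 genes in the comparisons of age and IOP, and Kcnj10 and Dkk3 had the most peaks, up to 7 in 3-month contralateral replicate 2.

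Ranks could be compared for regions called in all 12 control libraries, 12 of them at member genes. Across the genome 5.21% of these regions differed with age at an unadjusted p under 0.05, and 0 of the 12 did (exact permutation test, two-sided, smallest adjusted p over all regions 0.622). Glul -60 stood at a mean percentile of 87.8 ± 4.08 in 3-month and 88.3 ± 0.740 in 18-month controls (SD, n = 6 each), a difference of 0.42 (exact permutation p = 0.918). Kcnj10 -82 stood at 86.0 ± 5.77 and 85.6 ± 3.19 (SD, n = 6 each). Dkk3 +28919 was lower by 7.04 at 18 months, with exact permutation p = 0.455, and this difference was -18.8 between the untreated groups and 4.68 between the contralateral ones.

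With 3 libraries against 3, no exact test can fall under 0.1, so the count used here was of exclusive regions, those with 3 calls of 3 on one side and 0 of 3 on the opposite side. Between the untreated groups of the 2 ages, 3.82% of the regions that varied were of this kind, and 1 of the 17 such member regions was. Slc1a3 +46844, in an intron, was called in the untreated libraries of 3 months at percentiles of 39.8, 19.0 and 40.3 and in none of those of 18 months. In the contralateral libraries it was called in 2 of 3 at 3 months (15.5 and 57.1) and in 3 of 3 at 18 months (51.1, 2.78 and 44.7), so the direction seen in untreated retinas was absent there. If a peak had to cover 50% of the region, or lists were cut to equal numbers of top peaks, 1 of the 3 untreated libraries of 3 months called it. Between the contralateral groups 2.52% of varying regions and 0 of 18 member regions were exclusive to an age. The region is shown with its NFI letters in capitals.

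Slc1a3 +46844, chr15:8663821-8664020, minus strand, 5′ to 3′: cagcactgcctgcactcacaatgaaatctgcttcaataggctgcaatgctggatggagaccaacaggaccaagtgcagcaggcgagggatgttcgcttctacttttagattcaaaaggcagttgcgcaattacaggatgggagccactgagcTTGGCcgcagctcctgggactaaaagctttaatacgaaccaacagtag

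The comparison of 6 IOP with 6 contralateral retinas, with age as a stratum, asked what a mild rise of pressure changes. No member region differed in calls at p under 0.05, a level that only 3 of the 34 could reach. Across the genome 5.04% of 5572 testable regions had an unadjusted p under 0.05, and 0 of 3 member regions did (exact conditional test, two-sided). Dkk3 +702 was called in 5 of 6 contralateral and 2 of 6 IOP libraries (exact p = 0.26), and Aqp4 +9815 in 4 of 6 and 1 of 6 (exact p = 0.26). The number of regions called per gene differed for 0 of the 10 members and for 1.1% of all genes at an unadjusted p under 0.05 (exact permutation test, 400 arrangements, smallest possible p 0.005). No region and no gene of the genome passed after adjustment, with smallest adjusted p values of 0.397 for regions and 1.0 for genes by these exact tests.

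At 3 months, Aqp4 +9815 was the 1 member region exclusive to a side among 17 that varied, beside 0.967% of varying regions in the genome. It was called in all 3 contralateral libraries, at percentiles of 27.5, 27.2 and 5.78, and in none of the IOP libraries. If a peak had to cover 50% of the region, 1 of the 3 contralateral libraries called it, and with lists cut to equal numbers of top peaks the region was not found. At 18 months, 4.9% of varying regions in the genome were exclusive to a side and 0 of 17 member regions were. There Aqp4 +9815 was called in 1 of 3 contralateral (20.5) and in 1 of 3 IOP libraries (2.90). In the 6 untreated libraries it was called in 2, at percentiles of 3.11 and 6.97.

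Among the 13 member regions called in all 12 of these libraries, 1 was lower in rank after IOP at an unadjusted p under 0.05 and 0 were higher, beside 6.82% of such regions in the genome. This was Rlbp1 -3341, with percentiles of 74.6, 80.5 and 77.9 in contralateral and 75.2, 70.2 and 65.1 in IOP libraries at 3 months, and 78.1, 82.4 and 75.7 in contralateral and 41.9, 75.6 and 52.2 in IOP libraries at 18 months. At 18 months all 3 IOP values lay below the contralateral ones, the closest being 75.56 against 75.71, and at 3 months the groups overlapped. How often regions of the genome separate in this way was not counted. Between the ages, the IOP difference at Rlbp1 -3341 did not pass p under 0.05 (exact permutation p = 0.35, described below). The mean fell by 14.9 percentiles (exact permutation p = 0.015, adjusted over all regions 0.616 by the same exact test). The p was 0.167 without the 5 libraries with shortest peaks of 114 to 122 bp (exact permutation test, a mean fall of 12.6 percentiles). The call was also lost without either of 2 libraries, 18-month contralateral replicate 1 (exact permutation p = 0.06) and replicate 2 (exact permutation p = 0.065). It was lost as well by percentiles of the fold (exact permutation p = 0.06) and with the replicate number as a block (exact permutation p = 0.0625). In the genome 82.1% of ranks had a lower mean after IOP (median difference -2.53), beside 10 of the 13 at member genes (median -5.09). The largest fall of the 13 was at Kcnj10 +23599, with a difference of -16.2 (exact permutation p = 0.1). Glul -60 differed by -0.05 (86.8 ± 3.59 against 86.8 ± 1.98, SD, n = 6 each, exact permutation p = 0.985) and Kcnj10 -82 by -2.87 (exact permutation p = 0.265).

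Whether the IOP difference in rank differed between the ages was examined by exchanging IOP and contralateral labels inside each age group. Such exchanges assume no IOP effect at either age, so they do not test exactly for an equal effect at both ages. Of the 13 member regions 0 passed an unadjusted p of 0.05, and 2.7% of all such regions did (exact permutation test, added after the ranks had been seen). The smallest p was for Lhx2 +125 (exact permutation p = 0.085), with a difference after IOP of 5.34 percentiles at 3 months and -23.8 at 18 months.

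**Figure D5:**
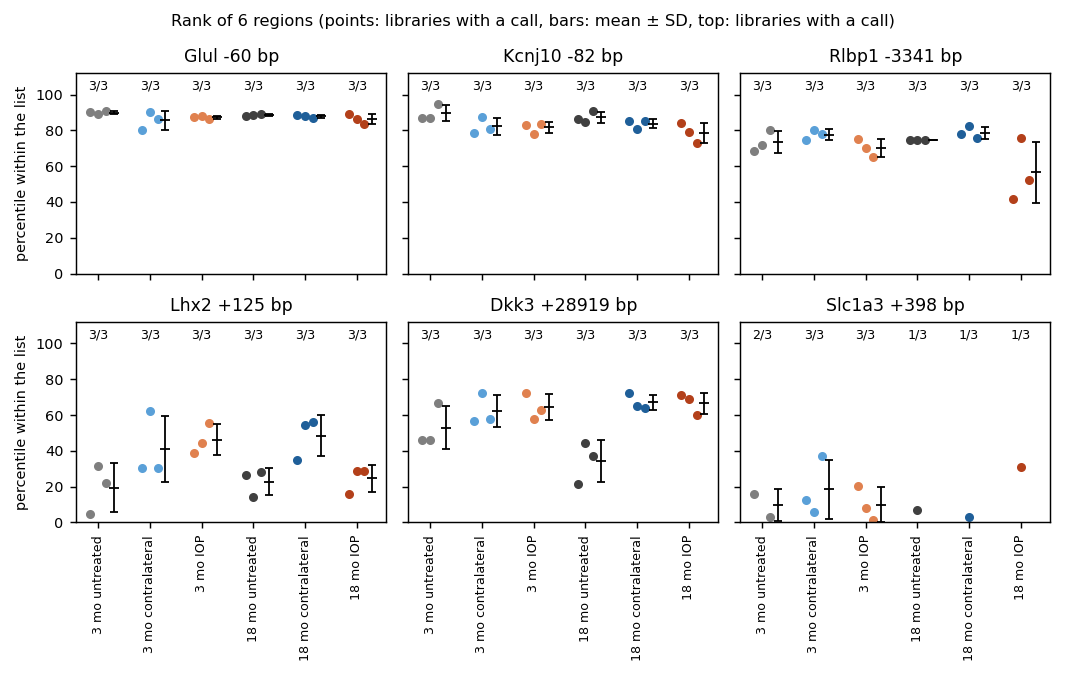
Percentile within the list of 6 member regions by group, with 1 point per library that called the region, bars giving the mean ± SD, and the number of libraries with a call at the top. Glul -60 and Kcnj10 -82 stayed above 70 in all 18 libraries, while Lhx2 +125 was lower in untreated than in contralateral retinas and Slc1a3 +398 was called in 1 of 3 libraries of each group at 18 months.

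The 2 kinds of control were set against each other, 6 untreated against 6 contralateral libraries, because they enter the age comparison together. Of 9868 testable regions 11.4% had an unadjusted p under 0.05, and 1 of the 4 at member genes did. Dkk3 +702 was called in 0 of 6 untreated and in 5 of 6 contralateral libraries (Fisher's exact p = 0.0152, smallest adjusted p of any region 0.0872). Its percentiles in the contralateral libraries were 17.5, 48.4 and 30.9 at 3 months and 25.6 and 9.79 at 18 months. Without the 5 libraries with shortest peaks of 114 to 122 bp the calls were 2 of 3 contralateral and 0 of 6 untreated (Fisher's exact p = 0.0833). The call was also lost with equal numbers of top peaks (Fisher's exact p = 0.182) and where a peak had to cover 50% of the region (Fisher's exact p = 1.0). The number of regions called per gene differed for 3.64% of all genes and for 0 of the 10 members, and the smallest member value was for Dkk3, with a difference of -1.33 regions (untreated minus contralateral) (exact permutation p = 0.0541).

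Ranks differed between the kinds of control for 27% of the regions called in all 12 libraries, and for 3 of the 12 at member genes, by an exact permutation test without adjustment. Kcnj10 -82 was higher in untreated libraries, at 88.5 ± 3.62 against 83.1 ± 3.55 (SD, n = 6 each, exact permutation p = 0.0281). Lhx2 +125 was lower, at 21.0 ± 10.1 against 44.7 ± 14.5 (SD, n = 6 each, exact permutation p = 0.0065), and the ranges nearly separated, with a highest untreated value of 31.5 and a lowest contralateral one of 30.2. Dkk3 +28919 was lower, at 43.6 ± 14.8 against 64.7 ± 6.75 (SD, n = 6 each, exact permutation p = 0.0108). Across the genome 1487 such regions passed after adjustment. Adjusted over all regions the member values were 0.135, 0.0632 and 0.081 by the exact permutation test, so that none of the 3 passed. The calls on Lhx2 +125 (p = 0.0595) and Dkk3 +28919 (p = 0.119) were lost in the exact permutation test without the 5 libraries named above. That on Kcnj10 -82 held there (p = 0.0119), but it was lost (exact permutation p of 0.0563 to 0.0649) without 3-month untreated replicate 6, 3-month contralateral replicate 1 or 3, 18-month untreated replicate 6 or 18-month contralateral replicate 2.

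The 24 other Müller glia genes (Vim, Clu, Sox2, Hes5, Rax, Nfia and others) held 110 regions, of which 37 (33.6%) were called in all 18 libraries. In the age comparison 0 of their 15 testable regions passed an unadjusted p of 0.05 (3.58% in the genome), by the same exact test. After IOP 0 of 4 did (5.04% in the genome). Between the kinds of control 2 of 15 passed, 1 in each direction (11.4% in the genome). By the number of regions called per gene 0 of the 24 passed for age or IOP (1.78% and 1.1% of all genes). Between the kinds of control 2 passed, both lower in untreated libraries (3.64% of all genes). Neither passed after adjustment.

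Motif letters were searched on both strands in the 200 bases around the median summit, in the 73449 of 73567 consensus regions with sequence. The NFI letters TTGGC was in 22 of 34 member regions (64.7%) and in 35.6% of all consensus regions. The RBPJ letters TGGGAA were in 7 (20.6%, all regions 17.1%). The Crx and Otx2 letters TAATCC, read in rod and cone regulatory elements, were in 2 (5.88%, all regions 15.4%). Of these, 1 was among the 13 own start regions, beside 5.93% of consensus regions at protein-coding starts. The remaining 1 was among the other 21, beside 18.1% of consensus regions away from such starts. The SOX letters AACAAT (all regions 5.78%), the homeodomain letters TAATTA (4.14%), the AP-1 letters TGANTCA (6.60%) and the STAT letters TTCNNNGAA (4.40%) were in 1 member region each. Of the 13 own start regions 10 held TTGGC, beside 38.1% of consensus regions at protein-coding starts. A match is a description of the letters and not a bound site. The member windows had a median GC content of 59.0%, against 52.5% over all consensus regions. For the 13 own start regions the median was 63.5%, against 65.0% over consensus regions at protein-coding starts.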

How the data were processed

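ATAC-seq peak lists of 18 mouse retina libraries were analysed. Peaks had been called by the authors with MACS2, and every library has its own list. The submitters' processing notes also name STAR 2.7.8a, HOMER, bedtools 2.29.2 and mm10, and the study's methods state a q-value of at most 0.05 for the calls. The labels' extraction text describes crosslinking and immunoprecipitation, whereas the study's methods describe tagmentation of fresh nuclei. The deposited lists give the start, end and summit of each peak, a score derived by the authors' caller from the q-value, the fold (a ratio of the pileup to local background) and the −log10 p-value and −log10 q-value at the summit, as deposited. The largest listed q-value was 0.0473 to 0.0499 per list. Depth in reads is not in the lists and is unknown here, so no interval was computed, and a region not called may be open below the threshold of the caller.

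Peaks overlapping by at least 1 bp were merged across libraries (99792 regions), and 73567 with a peak in at least 2 libraries were kept. Gene windows and start sites came from GENCODE M21, and sequences from the RefSeq assembly GRCm38.p6. On the 21 chromosomes compared, all peaks ended inside the chromosome. Sequence was taken for 73449 of the 73567 consensus regions, and motif and GC values over all regions refer to those. Printed stretches were cut to exclude UTRs, and none is printed from chromosome 18. Calls were tested with Fisher's exact test or an exact conditional test with age as stratum, numbers of regions per gene and percentiles with exact permutation tests, all over the genome with the Benjamini-Hochberg adjustment (Python 3.11.15, numpy 2.4.6, pandas 2.3.3, scipy 1.17.1). Tests were checked on simulated data. The study's model of read counts could not be applied to peak lists. Named regions were the own start of each member, the best-ranking region away from starts, every region with an unadjusted p under 0.05 and every exclusive region, and other regions are described by their calls. Samples were grouped by the labels. Replicate numbers are those of the labels, and for untreated replicates 4 and 6 at both ages the deposited names carry these numbers exchanged. One marker list is not reported here as a whole. The members and lists were chosen with earlier results of these data known. The alternatives were a −log10 q of at least 2, a peak covering at least 50% of a region, equal numbers of top peaks, at least 3 libraries per region, a window from 2 kb upstream, percentiles of the fold, strata by kind of control, by shortest peak or by replicate number, and leaving out each library. Leaving out the 5 libraries with shortest peaks of 114 to 122 bp was added after seeing the data, as was the test of IOP ranks between ages. No 2 libraries were duplicates, since pairs shared at most 0.786 of the regions called in either.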

Additional observations from a re-analysis of the deposited data

How the results depend on the processing

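The counts of 0 member regions, genes and start-site ranks that differed with age or after IOP were 0 in every alternative run for them. Strata by shortest peak were run for region calls only, and no alternative was run for the number of regions per gene between kinds of control or for IOP ranks between ages. Across the alternatives the 34 member regions became 25 to 35. Requiring a peak to cover 50% of its region left 2 of the 11 regions called in all libraries, gave 4 regions in place of 1 that differed between kinds of control, none of them Dkk3 +702 (Fisher's exact p = 1.0), and gave 0 regions exclusive to a side after IOP at 3 months and 1 at 18 months. With equal numbers of top peaks, 6 regions were called in all libraries and 0 differed between kinds of control. At 3 months the exclusive region was then Dkk3 +702, and Aqp4 +9815 was no longer a region. A −log10 q of at least 2 removed only 0.200% to 0.992% of the peaks of a list and changed none of these counts. Without the 5 libraries with shortest peaks of 114 to 122 bp, 0 regions differed between kinds of control, and 3 regions at 3 months and 1 at 18 months were exclusive to a side among fewer libraries. Leaving out single libraries gave 1 to 2 exclusive regions at 3 months (2 without IOP replicate 1 or 2) and 0 to 1 at 18 months (1 without IOP replicate 2), 33 to 35 member regions and 11 to 12 called in all libraries. The causes were not tested. Deviations of same-numbered IOP and contralateral libraries correlated at -0.0639, -0.0676 and 0.0441 at 3 months and at 0.0873, 0.098 and -0.0284 at 18 months. Differently numbered pairs ranged from -0.141 to 0.113. With 3 libraries per group these values cannot decide whether libraries were paired, and replicate numbers were taken as names. A replicate block left 0 member regions, 0 genes and 0 start-site ranks that differed after IOP and 0 regions and 0 genes that differed with age, and Rlbp1 -3341 then had an exact permutation p of 0.0625. By percentiles of the fold its p was 0.06 (exact permutation test).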

Other observations

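In the member start sites a longer run of letters recurred, noticed after the motifs had been counted. ATTGGC, which joins the NFI letters TTGGC to the core of the CCAAT box on the other strand, was in 10 of the 34 member windows. Of these, 9 were among the 13 own start regions, namely at Glul, Sox9, Lhx2, Hes1, Apoe, Kcnj10 and Dkk3. The share over all consensus regions was 9.39%, and over those at protein-coding start sites 15.7%. The letters cannot tell an NFI site from a CCAAT box, and no test was made because the members and the letters were chosen with the data known.

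The position of the summit was more constant at some start sites than at others. Of the 6 own start regions called in all libraries, Glul -60, Kcnj10 -82 and Lhx2 +11736 had summits that lay within 68 to 98 bp over the 18 libraries, and those of Sox9 -90, Lhx2 +125 and Hes1 -256 were 383 to 707 bp apart. The first 3 had mean percentiles of 57.9 to 87.6 and the other 3 of 33.7 to 47.3. GC content was 64.0% to 71.0% in the first and 57.5% to 73.5% in the others.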
